A study of Mus musculus with 9 samples.

Results

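The 10 genes described here are immediate early genes, transcribed within minutes of a stimulus: Fos, Fosb, Jun, Junb, Jund, Egr1, Atf3, Ier2, Klf4 and Btg2. They were taken by symbol from a deposited table of RPKM (reads scaled to transcript length and library size) that holds 18062 genes, and each of the 10 has 1 transcript line. Of the 10, 9 were among the 11032 genes with a mean of at least 0.5 RPKM, and Fosb lay below that level. The libraries came from total RNA of white gastrocnemius, the part of this calf muscle made mostly of fast glycolytic fibres. The knock-out group had 5 libraries from mice aged 5 months in which exon 6 of Gaa had been disrupted, with loxP sites placed in introns 5 and 6. Gaa encodes acid alpha-glucosidase, which breaks down glycogen in lysosomes, and its loss is the defect of Pompe disease. The wild-type group had 2 libraries from mice aged 5 months and 2 from mice aged 6 months, and the labels give every sample the mixed BL6/129j background. The labels do not say whether the disruption was limited to one tissue.

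The wild-type columns are headed wt1 to wt4 and carry no age, so which of them are 5 months old is not known here. They were used as 1 group of 4 and as the pairs wt1 with wt2 and wt3 with wt4, which are column pairs and not ages. Nothing in the labels says whether the libraries came from separate mice, so the p-values below measure the spread between these libraries, which may be technical. Gaa measured 3.11 to 3.65 RPKM in knock-out libraries, against 46.0 to 56.0 RPKM in those of wild type, and the fast fibre genes Tnnt3 and Ckm stood at 12510 RPKM or more in all 9. Depth was estimated from the steps of the low values, and 1 RPKM over 1 kilobase stood for 17.58 reads in ko3, 32.04 to 37.46 in the other knock-out libraries, 36.98 in wt1, 37.64 in wt2, 64.2 in wt3 and 47.24 in wt4. Averaged over genes with enough reads, the wild-type libraries differed more across the pairs than within them. The chi-square per gene was 4.48 between wt1 and wt2 and 4.05 between wt3 and wt4, against 13.63 to 15.49 across the pairs.

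Immediate early genes need no new protein synthesis for their transcription, which is switched on through MAP kinases, serum response factor with its ternary complex partners, and CREB-type factors. Their mRNAs are short-lived, so their level can move quickly with contraction, injury, stress or the handling of a tissue. Fos and Jun proteins pair to form AP-1, which binds DNA. Many of the products of immediate early genes then switch on later genes or damp the signal that induced them.

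The 250 bases before the annotated start were read for 8 of the 10 genes from RefSeq tables of build GRCm38.p6, on the strand of the gene. No window was read for Egr1 or Ier2. The deposited values were made on build mm9, so these windows serve as sequence only. A script searched both strands for the AP-1 site TGANTCA, the full cAMP response element TGACGTCA, its core TGACG (which lies inside the full element), the CArG box of serum response factor, the EGR site GCGNGGGCG and the TATA sequence TATAAA. The core TGACG was found in 6 of 8 windows (Fos, Fosb, Junb, Atf3, Klf4 and Btg2) and in 17.8% of the 32851 windows of all genes. The windows of Jun and Jund held no match to any of these motifs. The full element was found only in Btg2 (1.55% of all windows), the EGR site in Btg2, Klf4 and Fosb (4.70%), and TATAAA only in Fos (12.4%). The AP-1 site (6.75% of all windows) and the CArG box (1.47%) matched none of the 8. Bases farther from the start were not searched, so this does not show that the genes lack such sites. The members' windows were 47.6% to 74.0% G and C, against a median of 52.4% over all windows. A match is a description of the letters and does not show that a factor binds there. Printed below, with matches in capitals, are 4 windows of genes that differed between the wild-type pairs and that of Jun, which did not pass that test. They lie at chr12:85473640-85473889 (plus strand) for Fos, chr7:19310046-19310295 (minus strand) for Fosb, chr8:84978749-84978998 (minus strand) for Junb, chr1:134079156-134079405 (minus strand) for Btg2 and chr4:95052223-95052472 (minus strand) for Jun.
Fos: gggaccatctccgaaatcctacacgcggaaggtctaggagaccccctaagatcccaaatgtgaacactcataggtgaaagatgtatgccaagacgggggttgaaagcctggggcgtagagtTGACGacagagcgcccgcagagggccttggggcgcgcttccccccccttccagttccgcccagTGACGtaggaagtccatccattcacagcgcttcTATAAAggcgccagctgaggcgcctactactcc
Fosb: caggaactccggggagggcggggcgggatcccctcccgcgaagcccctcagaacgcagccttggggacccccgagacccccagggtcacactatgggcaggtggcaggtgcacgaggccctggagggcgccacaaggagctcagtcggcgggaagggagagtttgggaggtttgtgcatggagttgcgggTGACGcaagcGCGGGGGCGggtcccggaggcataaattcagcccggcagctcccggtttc
Junb: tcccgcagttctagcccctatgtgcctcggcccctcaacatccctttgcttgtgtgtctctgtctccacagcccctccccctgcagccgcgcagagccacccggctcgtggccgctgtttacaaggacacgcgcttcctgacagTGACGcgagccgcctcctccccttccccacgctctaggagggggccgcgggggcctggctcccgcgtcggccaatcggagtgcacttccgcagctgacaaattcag
Btg2: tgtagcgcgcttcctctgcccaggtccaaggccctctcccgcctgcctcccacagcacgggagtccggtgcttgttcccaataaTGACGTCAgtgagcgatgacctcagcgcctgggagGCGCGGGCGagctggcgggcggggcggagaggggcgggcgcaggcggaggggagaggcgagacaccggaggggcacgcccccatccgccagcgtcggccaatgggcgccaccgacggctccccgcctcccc
Jun: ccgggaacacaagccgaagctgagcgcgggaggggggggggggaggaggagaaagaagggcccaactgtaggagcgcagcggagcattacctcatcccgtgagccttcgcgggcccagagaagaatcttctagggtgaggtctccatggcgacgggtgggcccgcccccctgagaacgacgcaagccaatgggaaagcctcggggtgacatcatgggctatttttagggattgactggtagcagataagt

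The map of motif matches places them by distance from the start. The TGACG copies of Fos began at bases -129 and -66, ahead of TATAAA at -33, and those of Btg2 lay within its full element from -166 to -159. The single copies began at -60 in Fosb, -106 in Junb, -7 in Atf3 and -232 in Klf4.

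**Figure D1:**
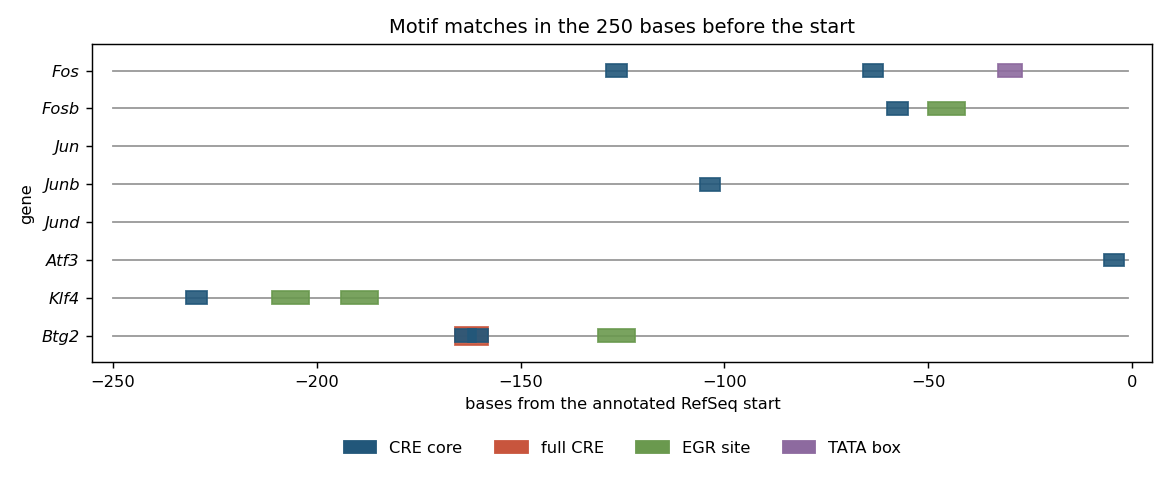
Matches to the searched motifs in the 250 bases before the start of the 8 genes with a window, with distance from the start in bases on the horizontal axis and 1 row per gene. Marks for TGACG appear in 6 rows, and the rows of Jun and Jund are empty.

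Across the 4 wild-type libraries, most of these genes were far from uniform. Fos, an AP-1 subunit that pairs with Jun proteins, measured 18.0 RPKM in wt1, 9.88 in wt2, 0.850 in wt3 and 1.29 in wt4. In the knock-out it measured 4.82, 3.17, 3.47, 3.67 and 4.55 RPKM in ko1 to ko5. Every knock-out library thus lay below wt1 and wt2 and above wt3 and wt4. On the log2(RPKM + 0.1) scale, with p adjusted by Benjamini-Hochberg over the 11032 genes and a threshold of 0.05, Fos fell by 1.75 (SE 0.23) against wt1 and wt2 (limma adjusted p = 7.9e-05) and rose by 1.79 (SE 0.23) against wt3 and wt4 (limma adjusted p = 8.5e-05). Against all 4 wild-type libraries the difference was 0.02 (95% interval -1.57 to 1.61, limma adjusted p = 0.98), and its sign changed with the scaling and the pseudocount.

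Fosb, a second Fos-family subunit of AP-1, was the least abundant of the 10. It measured 0.196, 0.103, 0.0746, 0.161 and 0.0816 RPKM in ko1 to ko5, 1.17 and 0.992 in wt1 and wt2, and 0.0246 and 0.0555 in wt3 and wt4. By the depth estimate these values stand for 164 and 141 reads in wt1 and wt2, 6 and 9.9 in wt3 and wt4, and 5 to 24 per knock-out library. The order was that of Fos, with the knock-out between the pairs and no overlap. Fitted without the filter on low values, Fosb fell by 2.43 (SE 0.23) against wt1 and wt2 (limma adjusted p = 2.0e-04). Its difference of 0.65 (SE 0.23) from wt3 and wt4 did not pass (limma adjusted p = 0.072). The exact permutation p-values, two-sided over 21 splits, were 0.048 against wt1 and wt2, the smallest these splits can give, and 0.095 against wt3 and wt4.

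Junb, an AP-1 subunit that activates less strongly than Jun and can oppose it, measured 14.5, 12.4, 7.96, 10.9 and 7.25 RPKM in ko1 to ko5. It measured 23.1 and 17.7 RPKM in wt1 and wt2 and 2.70 in both wt3 and wt4. The knock-out again lay wholly between the pairs, and its coefficient of variation of 28.6% was the highest of the 9 tested members. Junb fell by 0.97 (SE 0.23) against wt1 and wt2 (limma adjusted p = 0.0038), a call lost without wt1 (-0.78, adjusted p = 0.054), and rose by 1.89 (SE 0.23) against wt3 and wt4 (adjusted p = 5.3e-05). The exact permutation p over 21 splits was 0.095 against wt1 and wt2 and 0.048, the smallest possible, against wt3 and wt4.

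Jun, the AP-1 subunit that can pair with itself or with Fos, did not follow this order. It measured 17.6, 20.4, 15.4, 15.1 and 16.9 RPKM in ko1 to ko5, 15.2 and 10.8 in wt1 and wt2, and 14.6 and 12.4 in wt3 and wt4. The knock-out values overlapped wt1 and lay above wt2, wt3 and wt4. Jun rose by 0.37 (SE 0.11) on the log2 scale against the 4 wild-type libraries (limma adjusted p = 0.017, exact permutation p = 0.024), from 13.3 ± 2.05 (SD, n = 4) to 17.1 ± 2.13 RPKM (SD, n = 5). That call was lost when each library was centred on its median gene (0.24, adjusted p = 0.083), under quantile normalization (0.21, adjusted p = 0.12), with a length trend removed (0.26, adjusted p = 0.068) and without wt2 (0.27, adjusted p = 0.051). The difference between the wild-type pairs was 0.07 (95% interval -0.30 to 0.44, adjusted p = 0.87).

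Jund, the Jun-family subunit that many tissues express without stimulation, measured 11.1, 11.6, 8.26, 9.35 and 8.94 RPKM in ko1 to ko5. It measured 8.74 and 8.06 RPKM in wt1 and wt2 and 6.67 and 5.24 in wt3 and wt4. All knock-out values lay above wt3 and wt4, and the lowest, ko3, lay below wt1. Jund rose by 0.46 (SE 0.14) against the 4 wild-type libraries (limma adjusted p = 0.019), but it did not pass with libraries centred (0.34, adjusted p = 0.084), under quantile normalization (0.33, adjusted p = 0.085), with the length trend removed (0.26, adjusted p = 0.17) or without a filter (0.46, adjusted p = 0.0503). Against wt3 and wt4 it rose by 0.71 (SE 0.13, adjusted p = 0.0012). Against wt1 and wt2 the difference was 0.22 (95% interval -0.08 to 0.51, adjusted p = 0.20), and it was -0.03 with the length trend removed.

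**Figure D2:**
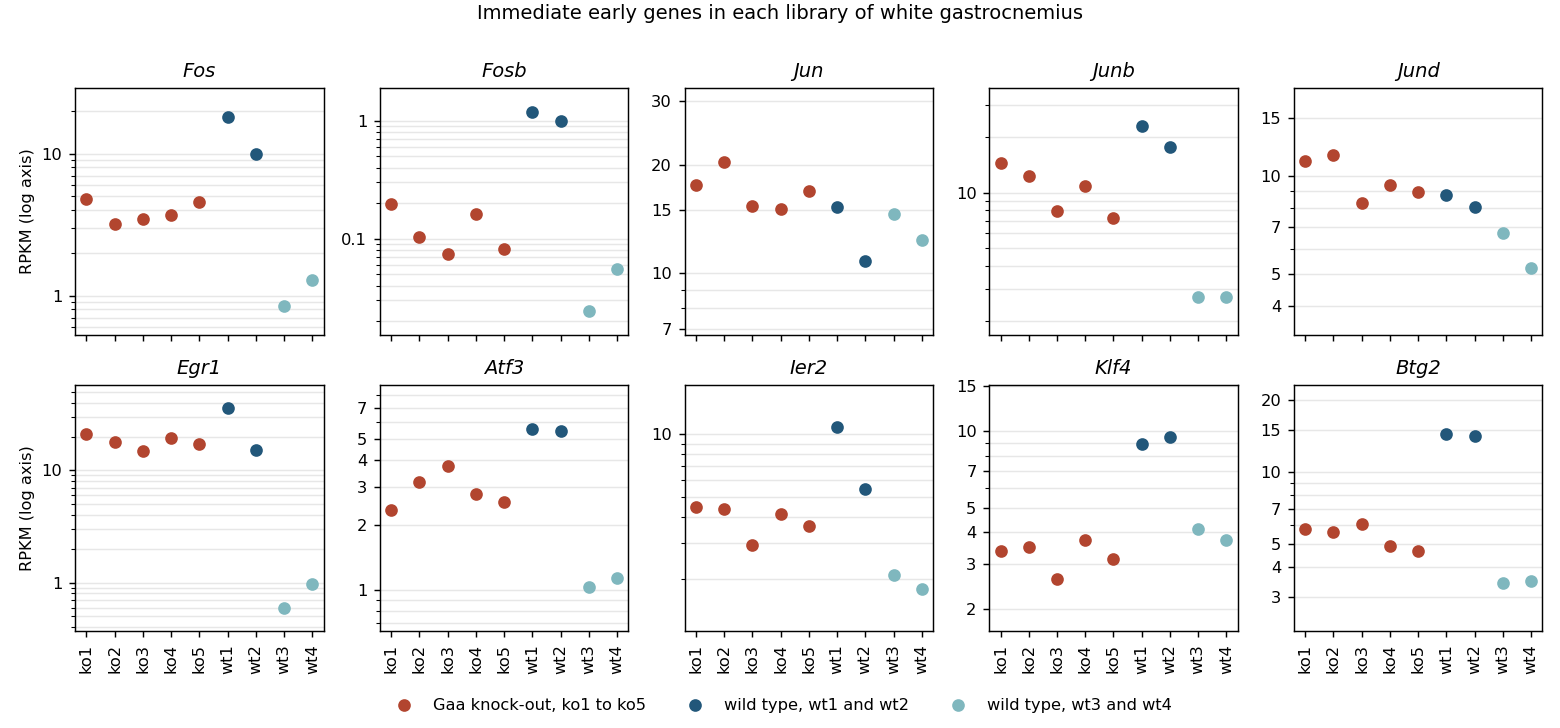
RPKM of each of the 10 genes on a log axis, 1 panel per gene, with 1 point per library for the knock-out, for wt1 and wt2 and for wt3 and wt4. Fos, Fosb, Junb, Atf3, Ier2 and Btg2 have all 5 knock-out points between the wild-type pairs, while the points of Jun overlap.

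Egr1, a zinc-finger factor that binds GC-rich sites, had the widest wild-type range of the 11032 genes. It measured 36.0 RPKM in wt1, 15.05 in wt2, 0.589 in wt3 and 0.976 in wt4, and 20.9, 17.9, 14.8, 19.2 and 17.0 in ko1 to ko5. The knock-out values were close to wt2, below wt1 and far above wt3 and wt4. The low values rest on an estimated 115 reads in wt3 and 140 in wt4, against 4037 in wt1 and 792 to 2188 in the knock-out. Egr1 rose 20.9-fold (4.38 on the log2 scale, SE 0.27) against wt3 and wt4 (limma adjusted p = 2.5e-07). Against wt1 and wt2 the difference was -0.38 (95% interval -0.97 to 0.21, adjusted p = 0.26), and it turned to 0.25 (adjusted p = 0.39) without wt1 and to -1.004 (adjusted p = 0.0046) without wt2. Against all 4 wild-type libraries it was 2.003 (95% interval -0.11 to 4.12, adjusted p = 0.10) and reached 3.005 without wt1 (adjusted p = 0.0079).

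Atf3, a CREB-family repressor induced by many stresses, measured 2.34, 3.17, 3.74, 2.79 and 2.56 RPKM in ko1 to ko5. It measured 5.58 and 5.47 in wt1 and wt2 and 1.03 and 1.14 in wt3 and wt4, so each wild-type pair was tight and the knock-out lay between them. It fell by 0.92 (SE 0.15) against wt1 and wt2 (limma adjusted p = 3.9e-04) and rose by 1.34 (SE 0.15) against wt3 and wt4 (adjusted p = 3.1e-05). Ier2, a small nuclear protein of the growth factor response, measured 4.46, 4.37, 2.92, 4.11 and 3.62 RPKM in ko1 to ko5, 10.8 and 5.43 in wt1 and wt2, and 2.10 and 1.79 in wt3 and wt4. It too lay between the pairs. It fell by 0.97 (SE 0.22) against wt1 and wt2 (adjusted p = 0.0037; -0.48 and 0.075 without wt1) and rose by 0.95 (SE 0.22) against wt3 and wt4 (adjusted p = 0.0051; 0.84 and 0.061 without wt4).

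Btg2, an antiproliferative protein that recruits the CCR4-NOT deadenylase to mRNAs, measured 5.76, 5.59, 6.07, 4.90 and 4.65 RPKM in ko1 to ko5, 14.5 and 14.1 in wt1 and wt2, and 3.44 and 3.49 in wt3 and wt4. The knock-out lay between the pairs, and its coefficient of variation of 11.1% was the lowest of the 10 members. Btg2 fell by 1.40 (SE 0.10) against wt1 and wt2 (limma adjusted p = 8.3e-07) and rose by 0.62 (SE 0.10) against wt3 and wt4 (adjusted p = 5.0e-04).

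Klf4, a zinc-finger factor of epithelial and vascular cells among others, was the only member lower in the knock-out than in every wild-type library. It measured 3.36, 3.51, 2.61, 3.72 and 3.15 RPKM in ko1 to ko5, 8.89 and 9.50 in wt1 and wt2, and 4.10 and 3.73 in wt3 and wt4. The highest knock-out value and wt4 were 3.72 and 3.73 RPKM. Klf4 fell by 0.87 (SE 0.26) against the 4 wild-type libraries (limma adjusted p = 0.015), and the exact permutation p of 0.0079 is the smallest that 126 splits can give. Against wt1 and wt2 it fell by 1.47 (SE 0.12, adjusted p = 2.0e-06). Against wt3 and wt4 it was -0.26 (SE 0.12, adjusted p = 0.097), and it passed with libraries centred (-0.36, adjusted p = 0.024), under quantile normalization (-0.36, adjusted p = 0.024) and with the length trend removed (-0.33, adjusted p = 0.037).

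**Figure D3:**
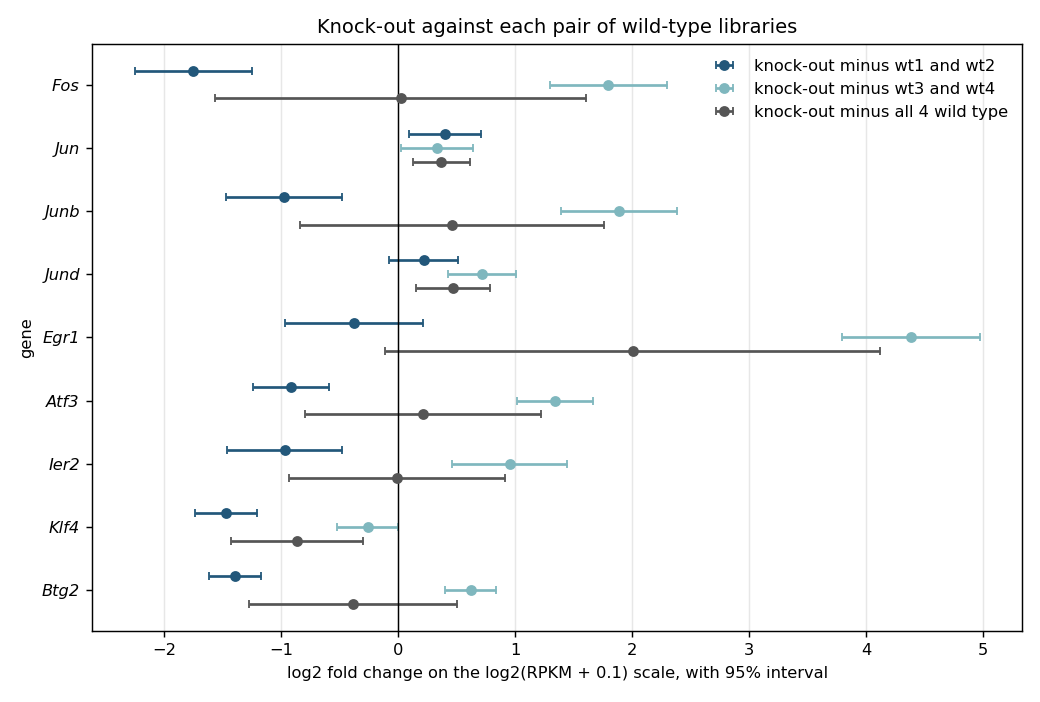
Log2 differences of the 9 tested genes on the log2(RPKM + 0.1) scale, knock-out against wt1 and wt2, against wt3 and wt4 and against all 4 wild-type libraries, with 95% intervals as bars. Fos, Junb, Atf3, Ier2 and Btg2 lie below 0 against the first pair and above 0 against the second, while the intervals against all 4 span 0.

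Counted together, 6 of the 9 tested members were lower in the knock-out than in wt1 and wt2 and 1 was higher, where 12.7% of all tested genes were lower and 38.5% higher. Against wt3 and wt4, 7 of 9 were higher and 0 lower, where 29.4% of all tested genes were higher and 14.3% lower. At an unadjusted p below 0.05, limma placed 8 higher and 1, Klf4, lower there. Against the 4 wild-type libraries together, 2 of 9 were higher and 1 lower, beside 37.0% and 14.8% of all tested genes, so the higher share of the members was below that background. The median log2 difference of the members was -0.97, 0.95 and 0.21 in these 3 comparisons, and that of all tested genes was 0.17, 0.08 and 0.12. The comparisons share the knock-out libraries, so they are not independent of each other. With each library centred on its median gene, the genes called higher and lower became 2769 and 2758 in place of 4081 and 1632 against all 4 wild-type libraries, 2720 and 2469 in place of 4251 and 1405 against wt1 and wt2, and 2428 and 2415 in place of 3238 and 1575 against wt3 and wt4. The members' counts then stood at 0 higher and 1 lower, 0 and 6, and 7 and 1.

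Between the wild-type pairs themselves, 7 of 9 members were lower in wt3 and wt4 than in wt1 and wt2 and 0 were higher (8 and 0 at an unadjusted p below 0.05), while 1.26% of all tested genes were lower and 1.74% higher. Egr1 had the largest fall of all genes tested, 27.2-fold (-4.76 on the log2 scale, SE 0.32, limma adjusted p = 8.3e-06). Fos was 11.7-fold lower (-3.55, SE 0.27, adjusted p = 2.5e-05) and Junb 7.26-fold lower (-2.86, SE 0.27, adjusted p = 1.2e-04). The folds of the others called were 4.77 for Atf3, 4.04 for Btg2, 3.802 for Ier2 and 2.31 for Klf4. Fosb, fitted without the filter, was at -3.08 (adjusted p = 0.0031). The difference of Jund was -0.50 (95% interval -0.85 to -0.15, adjusted p = 0.12). The median of the members was -2.01, beside 0.07 over all genes. The pairs were known to differ in these genes when this contrast was set up, so its p-values describe the 4 libraries and give no independent support.

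A stricter count asks for all 5 knock-out values below wt1 and wt2 and above wt3 and wt4. Of the 9 tested members 5 had that order (Fos, Junb, Atf3, Ier2 and Btg2), as had 46 of 11032 genes, or 0.417%. Outside the tested genes Fosb had it too. This order includes wt1 and wt2 above wt3 and wt4, a difference known beforehand. This count and that of the wild-type range below thus describe these libraries and give no independent support. Among the wild-type libraries, the highest value was at least 4-fold above the lowest for 6 of 9 tested members and for 66 genes in all (0.598%). That fold, with 0.1 RPKM added to both values, was 52.3 for Egr1, 19.0 for Fos, 8.30 for Junb, 5.77 for Ier2, 5.05 for Atf3, 4.12 for Btg2, 2.51 for Klf4, 1.66 for Jund and 1.41 for Jun, with a median of 1.20 over all genes. In the knock-out the same fold ran only from 1.299 to 1.99 among the 10 members, with a median gene at 1.24. Every member thus varied more than the median gene within the knock-out, and for all 10 the wild-type range was the wider one.

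The pair wt1 and wt2 was not uniform either. Of the 10 members, 9 were higher in wt1, with a ratio of 2.38 for Egr1, 1.97 for Ier2, 1.81 for Fos and 1.41 for Jun, and a median gene at 1.01. Atf3 (1.02) and Btg2 (1.03) hardly differed between these libraries, and Klf4 (0.94) was lower in wt1. Estimated depth was alike in wt1 and wt2, while wt3 and wt4 were the deepest of the 9 and held the lowest values of most members. The part of depth in these values was not tested.

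By level, Egr1 and Jun led in the knock-out at means of 18.0 ± 2.30 and 17.1 ± 2.13 RPKM (SD, n = 5), which did not differ beyond their spread. Junb followed at 10.6 ± 3.03 and Jund at 9.84 ± 1.42, also within their spread. Btg2 stood at 5.39 ± 0.597, Fos at 3.94 ± 0.712, Ier2 at 3.90 ± 0.634, Klf4 at 3.27 ± 0.423, Atf3 at 2.92 ± 0.551 and Fosb at 0.123 ± 0.0531 RPKM, and from Fos to Atf3 each neighbour overlapped the next. In the wild type Jun stood at 13.3 ± 2.05 RPKM (SD, n = 4) and Jund at 7.18 ± 1.55. The other means had an SD near or above their own size in several cases, as for Egr1 (13.1 ± 16.6), Junb (11.6 ± 10.5) and Fos (7.50 ± 8.13), so no order was read among the wild-type means. Btg2 stood at 8.87 ± 6.25, Klf4 at 6.56 ± 3.06, Ier2 at 5.03 ± 4.18, Atf3 at 3.30 ± 2.57 and Fosb at 0.561 ± 0.606.

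**Figure D4:**
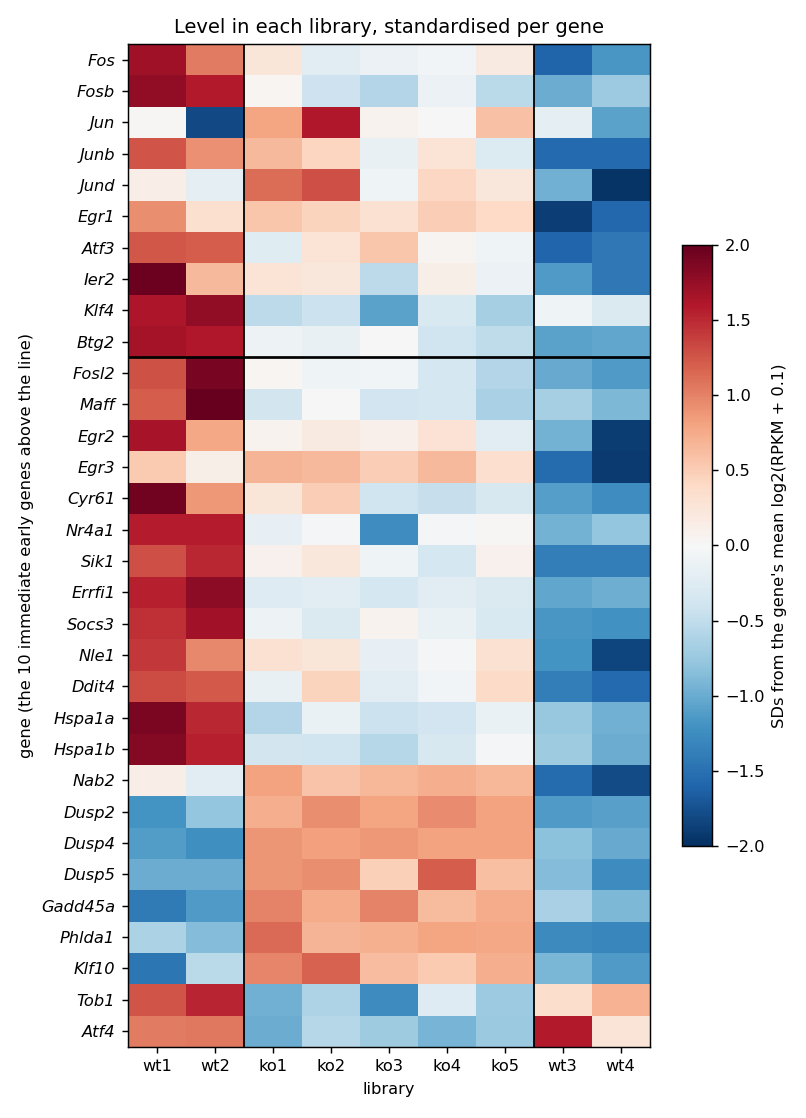
Standardised log2(RPKM + 0.1) of the 10 members and of other genes named in the text (rows) in the 9 libraries (columns), with colour for the number of SDs from the gene's own mean. The rows of Fos, Fosb, Junb, Atf3, Ier2 and Btg2 are highest in wt1 and wt2, lowest in wt3 and wt4 and intermediate in the knock-out, while that of Jun is not.

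The mean standardised profile of the tested members was 1.17 in wt1, 0.61 in wt2, between -0.11 and 0.39 in the knock-out, -1.12 in wt3 and -1.28 in wt4. As a description over 9 libraries that fall into these sets, the correlation of single members with it was 0.98 for Junb, 0.96 for Ier2, 0.94 for Fos, 0.92 for Atf3, 0.92 for Egr1, 0.85 for Btg2, 0.72 for Jund, 0.52 for Klf4 and 0.22 for Jun. The other genes most like it were Nle1 (r = 0.98), Egr2 (0.96), Ddit4 (0.95), Cyr61 (0.94) and Sik1 (0.94). Egr2 is a paralogue of Egr1, Ddit4 inhibits mTORC1, and Cyr61 is a secreted matrix protein. All share the same libraries, depth and scaling.

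Other immediate early genes, a list of 62 symbols of which 56 were tested, also differed between the wild-type pairs. Differences of the genes below are not centred, so they hold the shift of the median gene given above. For this list and those below, the background is the share of all tested genes called. It was 37.0% higher and 14.8% lower against all 4 wild-type libraries and 38.5% and 12.7% against wt1 and wt2. It was 29.4% and 14.3% against wt3 and wt4, and 1.74% and 1.26% between the pairs. Of the 56, 26 were lower and 2 higher in wt3 and wt4 than in wt1 and wt2. Against wt1 and wt2 the knock-out was lower for 31 and higher for 13, against wt3 and wt4 higher for 25 and lower for 8, and against all 4 higher for 14 and lower for 10. Errfi1, a feedback inhibitor of the EGF receptor, measured 12.1 to 13.3 RPKM in the knock-out, 41.2 and 47.5 in wt1 and wt2, and 7.76 and 8.13 in wt3 and wt4. Socs3, an inhibitor of cytokine signalling, measured 1.32 to 1.84 RPKM in the knock-out, 5.98 and 7.14 in wt1 and wt2, and 0.602 and 0.577 in wt3 and wt4. Both had the order of Fos, and both were called against each pair. Cyr61 had it too, at 5.99 to 10.9 RPKM in the knock-out against 27.0, 13.9, 3.94 and 3.60 in wt1 to wt4.

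The orphan nuclear receptor Nr4a1 measured 56.1 to 81.5 RPKM in the knock-out, 129 in both wt1 and wt2, 61.2 in wt3 and 64.6 in wt4, so the knock-out overlapped the lower pair. Egr3, another EGR factor, was at 1.26 to 1.81 RPKM in the knock-out, 1.53 and 0.988 in wt1 and wt2, and 0.109 and 0.0444 in wt3 and wt4, an order close to that of Egr1. It rose by 1.82 against all 4 wild-type libraries (limma adjusted p = 0.025) and by 3.29 against wt3 and wt4 (adjusted p = 3.1e-07). Its difference of 0.35 from wt1 and wt2 did not pass (adjusted p = 0.18). Egr2 was at 0.509 to 0.840 RPKM in the knock-out and at 2.91, 1.32, 0.224 and 0.0424 in wt1 to wt4. Zfp36, which destabilises AU-rich mRNAs, differed by 0.41 on the log2 scale from all 4 (adjusted p = 0.27), the phosphatase gene Dusp1 by 0.38 (adjusted p = 0.071) and Myc by -0.24 (adjusted p = 0.21). Ier3 rose by 0.69 against all 4 (adjusted p = 0.0015). Against wt3 and wt4 alone, Zfp36 rose by 1.04 (limma adjusted p = 0.002) and Dusp1 by 0.65 (adjusted p = 0.0048), while Myc did not pass (-0.096, adjusted p = 0.70). Against wt1 and wt2, Zfp36 (-0.215, adjusted p = 0.41), Dusp1 (0.10, adjusted p = 0.59) and Myc (-0.38, adjusted p = 0.095) did not pass. Zfp36 was lower in wt3 and wt4 than in wt1 and wt2 (-1.26, adjusted p = 0.022).

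Of the 56, 10 were called higher against each of the wild-type pairs, beside 0 of the 9 tested members and 25.8% of all tested genes. Of these 10, 4 were also called between the wild-type pairs: Arc, Ptgs2 and Zfp36l2, lower in wt3 and wt4, and Tnfaip3, higher there. The other 6 were not called between the pairs, and the 3 with the smallest p against all 4 wild-type libraries were Gadd45a, Phlda1 and Klf10. Gadd45a, a growth arrest gene, measured 26.2 to 32.5 RPKM in the knock-out and 7.51, 8.92, 12.03 and 10.3 in wt1 to wt4, a rise of 1.602 on the log2 scale (limma adjusted p = 9.2e-07). Phlda1 rose by 2.16 (adjusted p = 1.2e-06) and Klf10, a TGF-beta-responsive zinc-finger gene, by 1.10 (adjusted p = 1.1e-05). Ptgs2, at a mean of 0.250 RPKM in wild type and 1.02 in the knock-out, passed the filter of 0.5 RPKM through the knock-out.

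**Figure D5:**
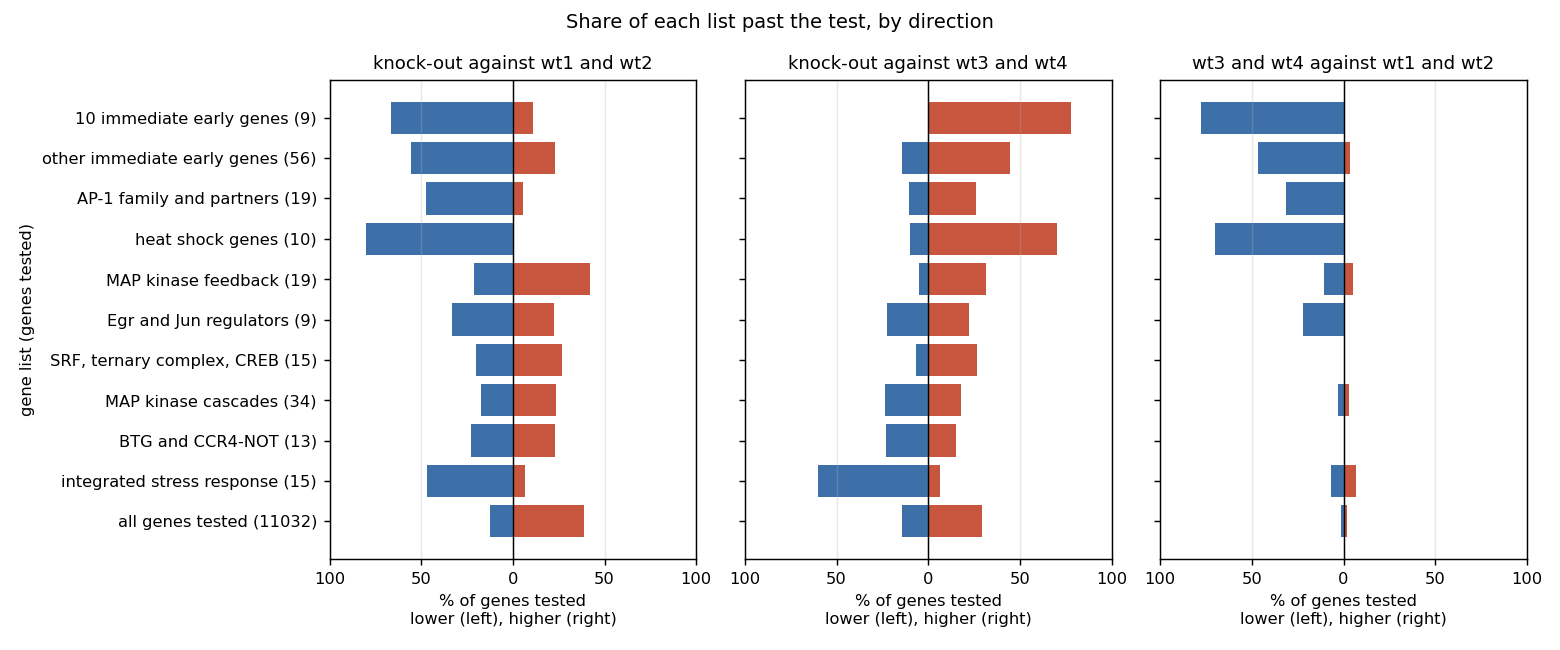
For each gene list, the tested members called higher (to the right) and lower (to the left) in 3 comparisons (knock-out against each wild-type pair, and between the pairs), as percent of the list's tested genes. In the immediate early, AP-1 and heat shock lists more genes are lower than higher against wt1 and wt2, and more are higher than lower against wt3 and wt4.

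Among 19 tested partners and relatives of AP-1 outside the 10, 9 were lower and 1 higher against wt1 and wt2, 2 lower and 5 higher against wt3 and wt4, and 3 lower and 2 higher against all 4. Between the wild-type pairs 6 were lower in wt3 and wt4 and 0 higher. Fosl2 measured 3.37 to 4.64 RPKM in the knock-out and 8.72, 11.95, 2.71 and 2.52 in wt1 to wt4, between the pairs. Maff, a small Maf protein, measured 1.23 to 1.79 RPKM in the knock-out and 3.53, 5.80, 1.22 and 1.06 in wt1 to wt4. Fosl1 was at 0.193 to 0.333 RPKM in the knock-out and 0.0511 and 0.247 in wt1 and wt2, and was listed at 0 in wt3 and wt4, too low to be tested. Mafg rose by 0.41 (limma adjusted p = 3.1e-04), Atf4 fell by 0.45 (adjusted p = 1.2e-04) and Atf5 fell by 0.80 (adjusted p = 2.3e-04) against all 4.

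Upstream, the list of serum response factor and its partners had 4 of 15 tested genes higher and 2 lower against all 4 wild-type libraries. Neither share was above that of all tested genes, 37.0% higher and 14.8% lower. Between the wild-type pairs 0 of the list were called (4 higher and 1 lower at an unadjusted p below 0.05). Against all 4, Srf differed by -0.11 (limma adjusted p = 0.35), Elk1 rose by 0.23 (adjusted p = 0.038) and the coactivator gene Mkl2 by 0.57 (adjusted p = 2.6e-04). Elk1 rose by 0.36 against wt1 and wt2 (adjusted p = 0.0041), but its difference of 0.10 from wt3 and wt4 did not pass (adjusted p = 0.36). Against wt1 and wt2 the list had 4 higher and 3 lower, and against wt3 and wt4 it had 4 higher and 1 lower. Of 34 MAP kinase pathway genes 10 were higher and 10 lower against all 4, beside 37.0% and 14.8% of all tested genes. The higher share was thus below that background and the lower share above it. The counts were 8 and 6 against wt1 and wt2, 6 and 8 against wt3 and wt4, and 1 and 1 between the pairs. Nras rose by 0.90 (adjusted p = 1.0e-06), while Mapk9, which encodes a JNK kinase, fell by 0.60 (adjusted p = 7.0e-06) and Mapk14, which encodes p38 alpha, fell by 0.42 (adjusted p = 9.8e-05).

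The phosphatases and other feedback inhibitors of MAP kinases had 6 of 19 genes higher and 3 lower against all 4. Of all tested genes 37.0% were higher and 14.8% lower there. The counts of the list were 8 and 4 against wt1 and wt2, 6 and 1 against wt3 and wt4, and 1 and 2 between the pairs. Dusp4, a nuclear MAP kinase phosphatase gene, measured 5.90 to 6.73 RPKM in the knock-out and 0.199, 0.152, 0.376 and 0.259 in wt1 to wt4, a rise of 4.24 on the log2 scale (limma adjusted p = 2.4e-09). Dusp2 rose by 2.80 (adjusted p = 3.4e-08) and Dusp5 by 2.30 (adjusted p = 1.9e-06). Mean RPKM was 2.33 in the knock-out and 0.253 in wild type for Dusp2, and 1.52 and 0.223 for Dusp5. The wild-type means of Dusp4 (0.247), Dusp2 and Dusp5 lay below the filter of 0.5 RPKM. These genes passed it through the knock-out, where they are high. For these 3 phosphatase genes all 4 wild-type libraries lay below the knock-out, unlike for Fos.

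Regulators of the EGR and Jun proteins had 2 of 9 genes higher and 2 lower against all 4. Of all tested genes 37.0% were higher and 14.8% lower there. The counts of the list were 2 and 3 against wt1 and wt2, 2 and 2 against wt3 and wt4, and 0 and 2 between the pairs. Nab2, a corepressor of EGR factors that they also induce, measured 6.81 to 7.93 RPKM in the knock-out and 5.09, 3.98, 1.62 and 1.37 in wt1 to wt4. It was higher in the knock-out than in all 4, by 1.46 (limma adjusted p = 0.0023), and lower in wt3 and wt4 than in wt1 and wt2. Gsk3b fell by 0.46 (adjusted p = 1.8e-05) and Cul3 fell by 0.57 (adjusted p = 3.7e-05). Of 13 CCR4-NOT and BTG family genes, the partners of Btg2, 5 were higher and 5 lower against all 4. The higher share was near the 37.0% of all tested genes and the lower share above their 14.8%. The counts were 3 and 3 against wt1 and wt2, and 2 and 3 against wt3 and wt4. Between the pairs 0 were called (1 at an unadjusted p below 0.05). Btg1 rose by 0.86 (adjusted p = 5.4e-05), Tob1 fell by 0.92 (adjusted p = 1.3e-04) and the deadenylase gene Cnot7 fell by 0.56 (adjusted p = 8.5e-05).

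Genes of the integrated stress response, in which Atf3 acts downstream of Atf4, had 0 of 15 higher and 7 lower against all 4. Of all tested genes 37.0% were higher and 14.8% lower there. The counts of the list were 1 and 7 against wt1 and wt2, 1 and 9 against wt3 and wt4, and 1 and 1 between the pairs. Chac1, a target of that pathway, fell by 2.19 (limma adjusted p = 8.2e-05). Ddit4 was the exception with the order of the members, at 24.0 to 41.3 RPKM in the knock-out and 81.5, 76.9, 9.47 and 8.27 in wt1 to wt4.

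Heat shock genes, listed as signs of tissue handling, moved with the members. Of 10 tested, 7 were lower in wt3 and wt4 than in wt1 and wt2 (1.26% of all tested genes). In the knock-out 8 were lower than in wt1 and wt2 (12.7% of all). Against wt3 and wt4, 7 were higher and 1 lower (29.4% and 14.3% of all). Against all 4, 2 were higher and 1 lower (37.0% and 14.8% of all). Hspa1a, which encodes an inducible HSP70 chaperone, measured 1.34 to 2.39 RPKM in the knock-out and 27.1, 17.3, 1.07 and 0.834 in wt1 to wt4. Its near-identical copy Hspa1b, whose reads may be split with it, measured 1.22 to 2.51 RPKM in the knock-out and 27.2, 19.1, 0.992 and 0.666 in wt1 to wt4. The knock-out values of both lay nearer wt3 and wt4, whereas those of Egr1 lay near wt2. Together, the members, the other immediate early genes, the AP-1 relatives and the heat shock genes made up 46 of the 139 genes lower in wt3 and wt4 (33.1%). They also made up 23 of the 46 genes with the knock-out between the pairs (50%). These lists hold 9, 56, 19 and 10 of the 11032 tested genes. The lists were chosen with earlier results of these data known, so the shares describe these libraries and give no independent support. How the muscle was collected is not given in the labels, and the part of handling in the spread was not tested.

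Markers of several other cell types differed between the genotypes. In bulk RNA fewer cells of a type and less RNA per cell cannot be told apart. Of 14 tested macrophage genes, 13 were higher in the knock-out than in all 4 wild-type libraries and 0 were called between the pairs (0 also at an unadjusted p below 0.05). Their summed level ran from 84.0 to 143 RPKM in knock-out libraries, against 34.9 to 45.6 in wild-type ones, with Lyz2 and C1qb the most abundant. Of 16 endothelial genes, 10 were lower against all 4 and 0 were called between the pairs (6 higher in wt3 and wt4 at an unadjusted p below 0.05), with sums of 43.1 to 76.4 RPKM in the knock-out, 60.3 and 71.8 in wt1 and wt2, and 97.3 and 89.6 in wt3 and wt4. Against all 4, satellite cell genes were higher for 5 of 6 and slow fibre genes for 8 of 8, and red cell genes were lower for 5 of 5. Fibroblast genes were higher for 4 of 11, a share near the 37.0% of all tested genes. They were higher for 7 against wt1 and wt2 (38.5% of all) and for 2 against wt3 and wt4 (29.4% of all). Lower against all 4 were 14.8% of all tested genes.

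Smooth muscle and pericyte genes were 3 higher and 2 lower of 9 against all 4, and adipocyte genes 0 and 4 of 8. Schwann cell genes were 0 and 0 of 5, and fast fibre genes 3 and 1 of 12. The higher shares of smooth muscle and fast fibre genes were near or below the 37.0% of all tested genes. Schwann genes were 3 higher and 0 lower against wt1 and wt2, and 0 and 1 against wt3 and wt4. Adipocyte genes were 2 and 3 against wt1 and wt2, and 0 and 4 against wt3 and wt4. Of all tested genes 38.5% were higher and 12.7% lower against wt1 and wt2, and 29.4% and 14.3% against wt3 and wt4. Between the wild-type pairs, 2 adipocyte genes, 1 Schwann gene, 1 smooth muscle gene and 1 satellite cell gene were higher in wt3 and wt4, and 1 satellite cell gene was lower. At an unadjusted p below 0.05 there, Schwann genes were 5 higher and 0 lower of 5, satellite cell genes 4 and 1 of 6, and fibroblast genes 4 and 0 of 11. Of the 11032 tested genes, 1547 were higher and 502 lower at that level. Of 13 neutrophil and lymphocyte genes 9 had a mean below 0.1 RPKM, and their sum ran from 1.59 to 2.58 RPKM in knock-out libraries and from 1.15 to 2.20 in wild-type ones. The tested one, Cd3e, was at 1.13 to 1.61 RPKM in the knock-out, 0.0373 and 0.0551 in wt1 and wt2, and 0.711 and 0.832 in wt3 and wt4, and it was called higher in wt3 and wt4 than in wt1 and wt2 (2.57, limma adjusted p = 2.6e-05). Its wild-type mean of 0.409 RPKM lay below the filter of 0.5 RPKM, which Cd3e passed through the knock-out. S100a8, also among the most abundant of the list, was not tested and went the other way. S100a8 measured 0 to 0.431 RPKM in the knock-out, 0.684 and 1.08 in wt1 and wt2, and 0.197 and 0.267 in wt3 and wt4. The part of these cell types in the values of the 10 immediate early genes was not tested.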

How the data were processed

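RNA sequencing values of 9 mouse gastrocnemius libraries were used as the authors deposited them: 1 table of RPKM per RefSeq transcript, with a column for each library. The submitters' processing notes name build mm9 with Partek 6.6, TopHat 1.3.2 and Bowtie 0.12.7.0. What each tool did, whether strand was used, and sequencing batches were not given in the sources used here. Trizol extraction and a TruSeq kit are recorded per the labels' protocols. Transcript lines (23665) were summed to 18062 genes, and 36 of 37 symbols that had become dates were restored. Replicates differed beyond sampling noise (chi-square per gene 3.06 to 15.49), so each counted once.

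Depth was estimated from values of at most 5 reads, of which 71.7% to 75.3% fell at most 0.1 from a whole read (20% by chance), too few for a count model. Knock-out libraries summed to 349239 to 374056 RPKM and wild-type ones to 315337 to 327517. Read numbers are estimates and cover counting only.

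Genes averaging 0.5 RPKM or more were fitted on log2(RPKM + 0.1), a scale that understates the change of low genes, with limma 3.58.1 in R 4.3.3 (trend, two-sided, Benjamini-Hochberg over 11032 genes, threshold 0.05). One fit had 5 knock-out against 4 wild-type libraries, and another had the knock-out and the 2 wild-type column pairs. Single members also had two-sided exact permutation tests over 126 or 21 splits, whose smallest p-values are 0.0079 and 0.048. The fits were tested on simulated data. Python 3.11.15, pandas 2.3.3, numpy 2.4.6, scipy 1.17.1 and matplotlib 3.10.9 were used.

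The members, the wild-type pairs and the gene lists were chosen with earlier results of these data known. Named genes were all members, 12 fixed early response genes and Gaa, in each pathway list up to 3 genes with the smallest p against all 4 wild-type libraries and up to 2 between the pairs, the 2 most abundant genes of a cell type list, and the 5 genes most like the members by Pearson correlation. Those printed are a part of them. Alternatives were other pseudocounts, filters, scalings and transcript choices, leaving out each library, and, chosen after seeing the data, those for the pair contrast and Fosb. One further gene is not reported here.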

Additional observations from a re-analysis of the deposited data

How the results depend on the processing

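The counts of members called kept within 1.5 times of their value under the alternatives run, except against all 4 wild-type libraries, where 3 became 1 with libraries centred, 1 under quantile normalization and 1 with the length trend removed. Leaving out a library gave 2 to 4 members there, 5 to 7 against wt1 and wt2, 6 to 8 against wt3 and wt4 and 7 between the pairs. Jun against wt1 and wt2 (0.40, SE 0.14, limma adjusted p = 0.032, exact permutation p = 0.095) was called in the report's fit, but not with centring (adjusted p = 0.16), quantile normalization (0.16), the length trend removed (0.16), no filter (0.089), a fit without trend (0.052), without ko1 (0.060) or without wt2 (0.46). Against wt3 and wt4 (0.33, adjusted p = 0.076) it was called in a fit of those 2 groups alone and without wt1 or wt2 (0.039 in each).

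Signs changed for values near 0. Fos against all 4 was -0.15 with a pseudocount of 1, -0.11 with centring, -0.072 under quantile normalization and -0.14 with the length trend removed, and ran from -0.66 to 0.75 without single libraries. Without single libraries Ier2 ran from -0.37 to 0.48, Junb from -0.021 to 1.00 and Atf3 from -0.19 to 0.59 against all 4, Egr1 from -1.004 to 0.25 against wt1 and wt2, and Jun from -0.18 to 0.32 between the pairs. With the length trend removed Jund against wt1 and wt2 was -0.028 and Jun between the pairs -0.021. The cause was not tested.

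No paired analysis was possible because the wild-type columns carry no replicate number of the labels, and a term for wild-type age could not be fitted because they carry no age. Where a pair lost a library, the lone one was assumed to vary like the other groups. The estimated 5 to 24 reads of Fosb in the knock-out limit its precision.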

Other observations

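Some genes not yet described also differed between the wild-type pairs. They were named after their values were seen, from the 12 largest falls from wt1 and wt2 to wt3 and wt4. Thbs1, which encodes the matrix protein thrombospondin 1, measured 8.57 and 14.6 RPKM in wt1 and wt2, 1.25 and 1.33 in wt3 and wt4, with knock-out values of 2.65 to 3.30. It had the order of Fos, between the pairs.

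Socs1, an inhibitor of cytokine signalling, differed from that order. It measured 5.19 and 6.30 RPKM in wt1 and wt2, 0.330 and 0.344 in wt3 and wt4. The knock-out values of 0.202 to 0.324 lay below both pairs, and its difference from wt3 and wt4 did not pass (-0.29, limma adjusted p = 0.22). Nr4a2 was at 2.92 and 3.69 RPKM in wt1 and wt2, 0.352 and 0.255 in wt3 and wt4, with knock-out values of 0.270 to 0.580 that overlapped the lower pair. Nr4a3 was higher in wt2 (16.6 RPKM) than in wt1 (6.40), the reverse of Egr1 and Fos, lay at 0.550 and 0.634 in wt3 and wt4, and ran from 2.19 to 3.73 in knock-out libraries.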
